A study of Mus musculus with 8 samples.

Results

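The results below follow 32 genes of glycolysis and of the hypoxia-linked metabolism around it, chosen by symbol from the 22691 genes of a deposited RNA-seq count table. They cover glucose uptake, each step of glycolysis, the fate of pyruvate, lactate transport and the oxygen-sensing arm. All 32 were in the table, and 31 passed the low-count filter that kept 13380 genes. Car9, a cell-surface carbonic anhydrase and a common marker of hypoxia, did not pass, with between 0 and 7 counts in a library.

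The libraries came from cell lines of mouse small cell lung cancer (SCLC), a neuroendocrine tumor, that had been derived from primary lung tumors. Nfib, a DNA-binding regulator of the nuclear factor I (NFI) family, had been overexpressed in 4 cultures, and the same 4 cultures carried an empty vector. Both arms share the tumor genotype, in which a Mycl transgene, invCAG-Mycl-Luc, is combined with Rb1-/-, on a background given as FVB/n; 129/Ola. Culture 1 is line Lmyc1, cultures 2 and 3 are both line Lmyc3, and culture 4 is line Lmyc5, so the 4 pairs come from 3 lines. The labels call cultures 1 and 2 old and cultures 3 and 4 new, and the meaning of these words is not given. They give no promoter for the Nfib vector, no oxygen level, no age and no passage, and nothing says that a library came from more than 1 dish, so that p-values cover only the spread from sample to sample, which may be technical.

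Glycolysis turns glucose into pyruvate through a chain of cytosolic enzymes, and many of its steps can be carried out by several isozymes that differ between tissues. Hypoxia-inducible factor 1 (HIF-1), whose oxygen-labile subunit is encoded by Hif1a, raises many of these genes when oxygen is low, while prolyl hydroxylases of the Egln family mark that subunit for destruction when oxygen is present. Proliferating tumor cells often run glycolysis to lactate and export it through monocarboxylate transporters.

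Promoter windows of the 4 genes with the smallest adjusted p in the comparison of Nfib with empty vector are shown here, as the DNA that a forced NFI factor or HIF-1 could meet. Each run is the 250 bases before an annotated start (RefSeq, build GRCm38.p6), written 5′ to 3′ on the gene's strand. Capitals mark the HIF core, ACGTG or GCGTG, and the NFI motif TTGGC, each searched on both strands, so that their reverse complements are in capitals too. Aldoc, which rose, has 2 annotated starts on the plus strand, at chr11:78322823-78323072 and chr11:78323948-78324197. Slc16a1, which fell, is shown at chr3:104638414-104638663 on the plus strand, Hk1, which fell, at chr10:62340422-62340671 on the minus strand, and Eno2, which fell, at chr6:124769674-124769923 on the minus strand.
Aldoc, first start: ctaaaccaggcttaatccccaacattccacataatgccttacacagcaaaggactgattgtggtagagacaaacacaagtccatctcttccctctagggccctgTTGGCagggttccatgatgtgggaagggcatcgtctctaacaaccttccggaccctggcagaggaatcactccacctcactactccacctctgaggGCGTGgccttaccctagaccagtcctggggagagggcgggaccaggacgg
Aldoc, second start: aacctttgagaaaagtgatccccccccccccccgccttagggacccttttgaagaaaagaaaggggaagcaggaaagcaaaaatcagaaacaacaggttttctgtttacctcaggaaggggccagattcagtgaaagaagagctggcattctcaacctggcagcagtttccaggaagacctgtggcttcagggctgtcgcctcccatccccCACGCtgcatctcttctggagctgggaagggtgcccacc
Slc16a1: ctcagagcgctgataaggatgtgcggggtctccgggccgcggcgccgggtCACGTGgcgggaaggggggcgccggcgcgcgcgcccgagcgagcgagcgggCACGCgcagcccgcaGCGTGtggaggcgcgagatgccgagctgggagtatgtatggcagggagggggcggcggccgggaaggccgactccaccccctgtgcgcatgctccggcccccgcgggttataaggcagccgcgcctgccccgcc
Hk1, downstream start: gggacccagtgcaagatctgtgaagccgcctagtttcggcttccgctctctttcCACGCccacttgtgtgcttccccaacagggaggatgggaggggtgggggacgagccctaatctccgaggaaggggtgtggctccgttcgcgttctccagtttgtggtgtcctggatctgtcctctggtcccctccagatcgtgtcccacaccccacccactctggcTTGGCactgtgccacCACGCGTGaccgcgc
Eno2: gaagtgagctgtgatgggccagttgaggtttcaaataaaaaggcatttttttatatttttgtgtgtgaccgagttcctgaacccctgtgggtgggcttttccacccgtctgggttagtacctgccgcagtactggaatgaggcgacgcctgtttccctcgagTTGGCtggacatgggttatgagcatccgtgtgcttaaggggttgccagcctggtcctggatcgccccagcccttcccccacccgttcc

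The first Aldoc window holds 1 HIF core and 1 NFI motif, and the second holds 1 HIF core and no NFI motif. Slc16a1 holds 4 HIF core matches, 2 of them the overlapping strands of 1 palindrome, and no NFI motif. The Hk1 window shown holds 3 HIF cores, of which 2 overlap, and 1 NFI motif, while the window of its upstream start, chr10:62379909-62380158, holds 0 of either and is not printed. Eno2 holds no HIF core and 1 NFI motif. Among the 32 genes, 30 matched a RefSeq promoter entry, with 44 windows in all. Windows of neighbouring starts can overlap, as for Eno1 and Aldoa, so that 1 match can count in more than 1 window. A HIF core stood in 35 of these 44 windows, or 79.5%, against 38.6% of 32851 mouse promoters of the same length. The NFI motif stood in 24 of them, or 54.5%, against 41.5% of all promoters. The windows were also richer in G and C, with a median GC content of 61.0% against 52.4%. Whether base composition, or the choice of genes linked to hypoxia, accounts for either share was not tested. A match describes letters only, not a bound site. The full palindromic NFI motif, TTGGC and its reverse complement spaced by 5 bases, was in 0 of the 44 windows and in 12 of all promoters.

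Library totals lay between 21815264 and 29934021 counts, at which 3 counts correspond to between 0.1 and 0.138 CPM (counts scaled to a common library size), a limit that covers counting error only. Levels below are CPM with library sizes scaled by the trimmed mean of M-values (TMM), and values of 4 libraries are listed in the order of cultures 1 to 4. Nfib itself, as a check of the labels, measured 1282, 4682, 2933 and 3590 CPM in the Nfib libraries, against 72, 400.2, 163 and 487 CPM in the empty vector libraries, and was higher in the Nfib library of every pair. The neuroendocrine marker list, 11 of 11 tested, summed to between 2429 and 4837 CPM in the Nfib libraries and between 3371 and 5897 CPM in the empty vector libraries, with Insm1 and Chga present in all 8. Of the marker lists for other cells, the leukocyte list summed to at most 2.5 CPM in any library, the fibroblast list to at most 12.7 CPM, the red cell list to at most 0.334 CPM, the skeletal muscle list to at most 0.976 CPM and the alveolar and airway list to at most 12.7 CPM. The endothelial list reached 650.1 CPM, nearly all of it Vwf, while Cdh5 and Pecam1 stayed under 0.5 CPM and Tek at or under 1.37 CPM. Kdr, which did not pass the low-count filter, measured 0, 5.75, 6.48 and 0.156 CPM in the Nfib libraries, against 0, 0.0946, 0.0371 and 0 CPM in the empty vector libraries, and its part in the results below was not tested. In such bulk libraries, fewer cells of a kind and less RNA per cell cannot be told apart.

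How far a read can be assigned to 1 gene limits some of these levels. How the authors' counting treated strand, and reads that fit several places, is not stated. Cutting each gene's principal transcript into 50-base windows, 12 of the 32 genes shared no window with another annotated gene, among them Aldoc, Slc16a1, Hk1, Hk2, Pfkm and Vegfa. Gapdh, glyceraldehyde-3-phosphate dehydrogenase and among the most abundant messages of most cells, was listed at only 3.87 ± 1.02 CPM in the Nfib libraries and 3.96 ± 1.69 CPM in the empty vector libraries (SD, n = 4 each). Of its windows, 82.5% also occurred in other genes, 222 in all, and the 27 of its closest copies in the table held between 33 and 133 counts together in a library, about as few as the 52 to 142 of Gapdh itself. The level printed for Gapdh can therefore not be read as that of the enzyme's message. Exon overlap in the annotation is a separate limit. Of these 6 genes, Pfkm overlaps Gm26513 on the same strand over 10.2% of its exon bases and Hk1 overlaps Hk1os on the opposite strand over 1.8%, while the other four overlap no annotated exon. Elsewhere the overlap reached 22.7% for Ankrd37, 22.3% for Bnip3, 15.3% for Pkm and 11.5% for Gpi1. Eno1 shared 72.2% of its windows, nearly all of them with Eno1b, Pgk1 shared 68.0%, Bnip3 62.4%, Pgam1 41.5% and Pkm 34.4%.

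**Figure D1:**
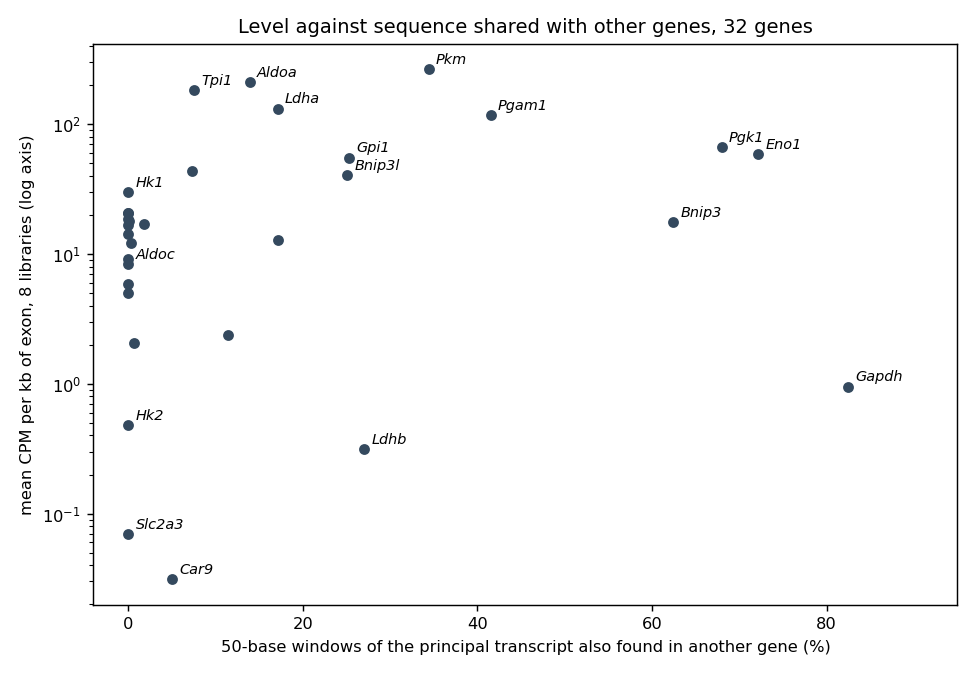
Each point is 1 of the 32 genes, with the share of its 50-base transcript windows that occur in another gene (percent, x axis) against its mean level over 8 libraries (CPM per kb of merged exon, log y axis). Gapdh has the highest share, 82.5%, and a mean of only 0.947 CPM per kb, while Eno1, Pgk1 and Pgam1 also share much of their sequence but lie above 50 CPM per kb.

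Per length, the glycolytic chain was led by Pkm at 265 CPM per kb of exon over the 8 libraries, followed by Aldoa at 212, Tpi1 at 183, Ldha at 132 and Pgam1 at 118 CPM per kb. These genes encode pyruvate kinase, the main aldolase, triosephosphate isomerase, the A subunit of lactate dehydrogenase and phosphoglycerate mutase. Next came Pgk1, Eno1 and Gpi1, for phosphoglycerate kinase, enolase 1 and glucose-6-phosphate isomerase, at 66.3, 58.9 and 55.4 CPM per kb. The entry of glucose was lower, with Slc2a1 (the transporter GLUT1) at 17 and Hk1 (hexokinase 1) at 30 CPM per kb. At the low end stood Hk2, Ldhb, Slc2a3 and Car9, all below 0.5 CPM per kb. This order rests on merged exon length, and genes close in level could change places by another length. Merged exons of Eno1 cover 5379 bases beside 2027 of its principal transcript, and those of Pgam1 cover 1982 beside 1775. As a share of all counts the 32 genes made up between 0.357% and 0.691% of an Nfib library and between 0.354% and 0.768% of an empty vector library.

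**Figure D2:**
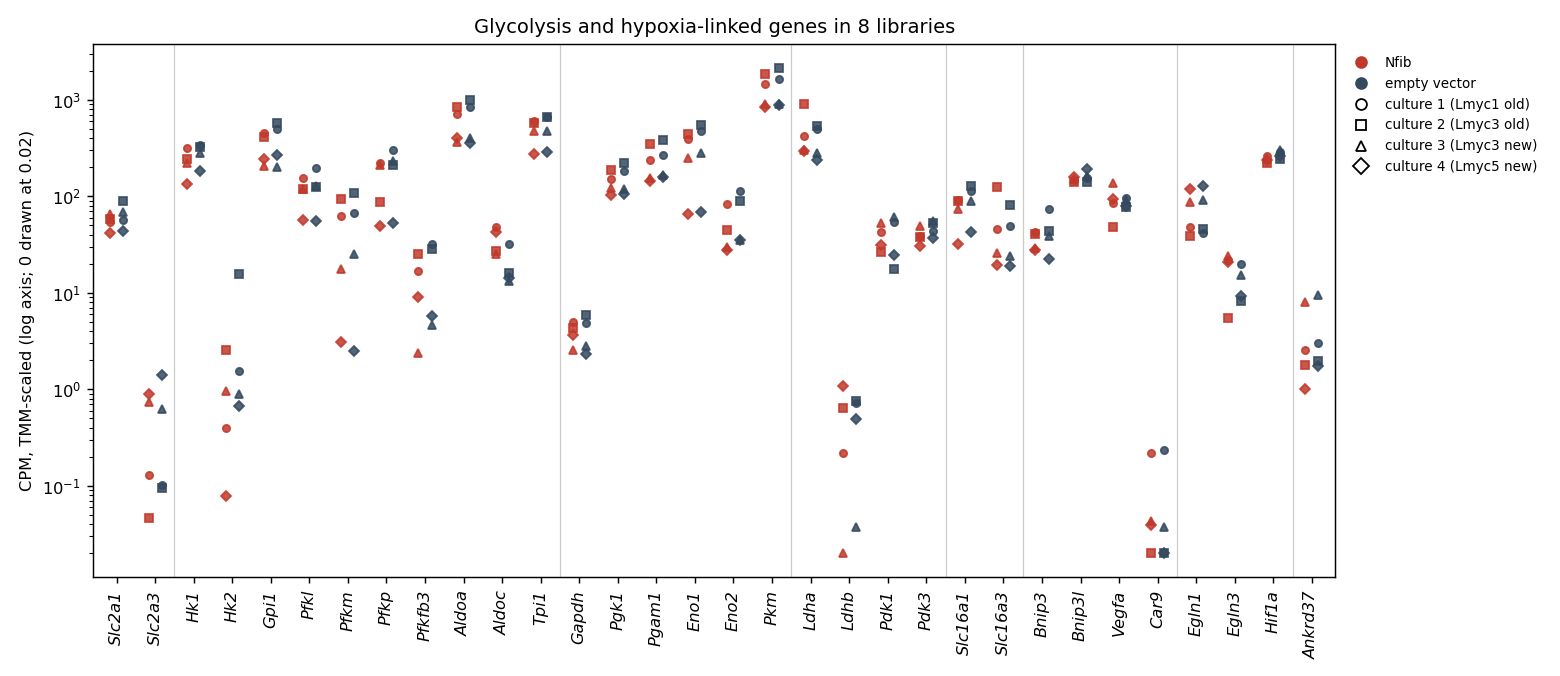
Levels of the 32 genes in each library (CPM, log y axis, values of 0 drawn at 0.02), grouped along the x axis by their place in the pathway, with Nfib points in red on the left and empty vector points in blue-grey on the right of each gene; symbols give the culture. Pkm is the highest at between 836 and 2129 CPM, and culture 4 (diamonds) is the lowest for 18 of 31 tested genes among the Nfib libraries and for 20 of 31 among the empty vector libraries, a count not made over all genes.

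Most of these genes differed between cultures, whichever vector they carried. Of the 31 genes tested, 27 (87.1%) differed between the 4 cultures in edgeR's F test at an adjusted p under 0.05, against 76.7% of all 13380 genes, so that a difference between cultures is the common state in this table. Gapdh, Bnip3l, Vegfa and Hif1a did not pass, with adjusted p of 0.0641, 0.0752, 0.137 and 0.0524. Culture 4 was the lowest of the 4 for 18 of 31 genes among the Nfib libraries and for 20 of 31 among the empty vector libraries. The same count was not made over all genes, so whether this is particular to the group was not tested. Summed over the 32 genes, levels were 6249, 7057, 4359 and 3501 CPM in the Nfib libraries, against 7154, 7929, 4565 and 3575 CPM in the empty vector libraries. Cultures 1 and 2 were thus above cultures 3 and 4 in both arms, and the Nfib library was the lower of each pair.

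Cultures 2 and 3 bear the same line name and still stood apart. Of the genes with counts in both cultures and both arms, 8 were higher in culture 2 by at least 1 on the log2 scale in both arms, namely Hk2, Gpi1, Pfkm, Pfkfb3, Aldoa, Pgam1, Pkm and Slc16a3. Ldhb, with no ratio for the Nfib arm, had 14 counts in culture 2 and 0 in culture 3 with Nfib, and 16 and 1 counts with empty vector. Another 3, Slc2a3, Egln1 and Ankrd37, were higher in culture 3 by as much. This limit was not applied to all genes, so whether these counts exceed those of the whole table was not tested. For Pfkfb3, whose product makes the activator fructose 2,6-bisphosphate, the difference was 3.42 in the Nfib libraries and 2.60 in the empty vector libraries.

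At the first step of glycolysis, Hk1 was far above Hk2 in every library. Hk1 measured 320, 244, 219 and 135 CPM in the Nfib libraries, against 344, 324, 282 and 182 CPM in the empty vector libraries. Hk2, the isozyme often raised in tumors, measured 0.392, 2.53, 0.95 and 0.0781 CPM in the Nfib libraries, against 1.56, 15.8, 0.891 and 0.677 CPM in the empty vector libraries. The empty vector library of culture 2 was alone in holding more than 3 CPM of it, from 333 counts. Per kb, Hk2 stood at between 0.000829 and 0.0148 of Hk1 in the Nfib libraries and between 0.00452 and 0.0694 of it in the empty vector libraries.

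Phosphofructokinase, the committed step, differed by culture in its isozyme make-up. Pfkm, the muscle-type subunit, measured 62.9, 93.3, 17.7 and 3.12 CPM in the Nfib libraries, against 66.6, 108, 25.3 and 2.48 CPM in the empty vector libraries. The highest culture thus exceeded the lowest 29.9-fold among the Nfib libraries and 43.4-fold among the empty vector libraries. Pfkl, the liver-type subunit, spread less, at 154, 120, 118 and 57.4 CPM in the Nfib libraries, against 195, 126, 129 and 55.1 CPM in the empty vector libraries. The per-kb ratio of Pfkm to Pfkl was 0.819, 1.56, 0.298 and 0.109 in the Nfib libraries, against 0.683, 1.71, 0.392 and 0.09 in the empty vector libraries. Culture 2 was the one in which Pfkm exceeded Pfkl, in both arms and also when the principal transcript's length replaced the merged exon length. For Pfkp, the platelet-type subunit, the mean ratio to Pfkl over the 8 libraries was 0.673 per kb of merged exon and 1.22 per kb of the principal transcript. By both lengths Pfkp was below Pfkl in culture 4, at 0.425 and 0.767 with Nfib and 0.482 and 0.871 with empty vector. The same held for the Nfib library of culture 2, at 0.364 and 0.657. In the other libraries the order depended on the length used.

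Aldolase and enolase each had 1 leading gene. Aldoa was far above Aldoc, the form known from brain, whose per-kb ratio to Aldoa was 0.06, 0.028, 0.061 and 0.094 in the Nfib libraries, against 0.034, 0.014, 0.029 and 0.035 in the empty vector libraries. Eno1 was above Eno2, the neuron-specific enolase used as a marker of neuroendocrine tumors, in all 8 libraries. The ratio of Eno2 to Eno1 was 0.243, 0.115, 0.136 and 0.483 in the Nfib libraries, against 0.275, 0.184, 0.142 and 0.585 in the empty vector libraries. Culture 4 had the highest ratio in both arms, and there Eno1 itself was lowest, at 65 CPM with Nfib and 68.3 CPM with empty vector. Because Eno1 shares most of its sequence with Eno1b, which held between 6.91 and 56.9 CPM, its own level is uncertain.

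Pyruvate was met by Ldha and hardly by Ldhb, the heart-type subunit. Ldha measured 425, 902, 303 and 292 CPM in the Nfib libraries, against 505, 537, 283 and 236 CPM in the empty vector libraries. Ldhb had between 0 and 28 counts in the Nfib libraries and between 1 and 21 in the empty vector libraries, and did not exceed 1.1 CPM. Of the kinases that switch off pyruvate dehydrogenase, Pdk3 lay at between 30.4 and 49.1 CPM with Nfib and between 37 and 54.9 CPM with empty vector, and Pdk1 at between 26.4 and 52.5 CPM with Nfib and between 17.5 and 60.5 CPM with empty vector. For glucose uptake, Slc2a1 lay between 41.8 and 65.5 CPM with Nfib and between 43.4 and 89.1 CPM with empty vector, whereas Slc2a3 (GLUT3) had at most 31 counts.

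**Figure D3:**
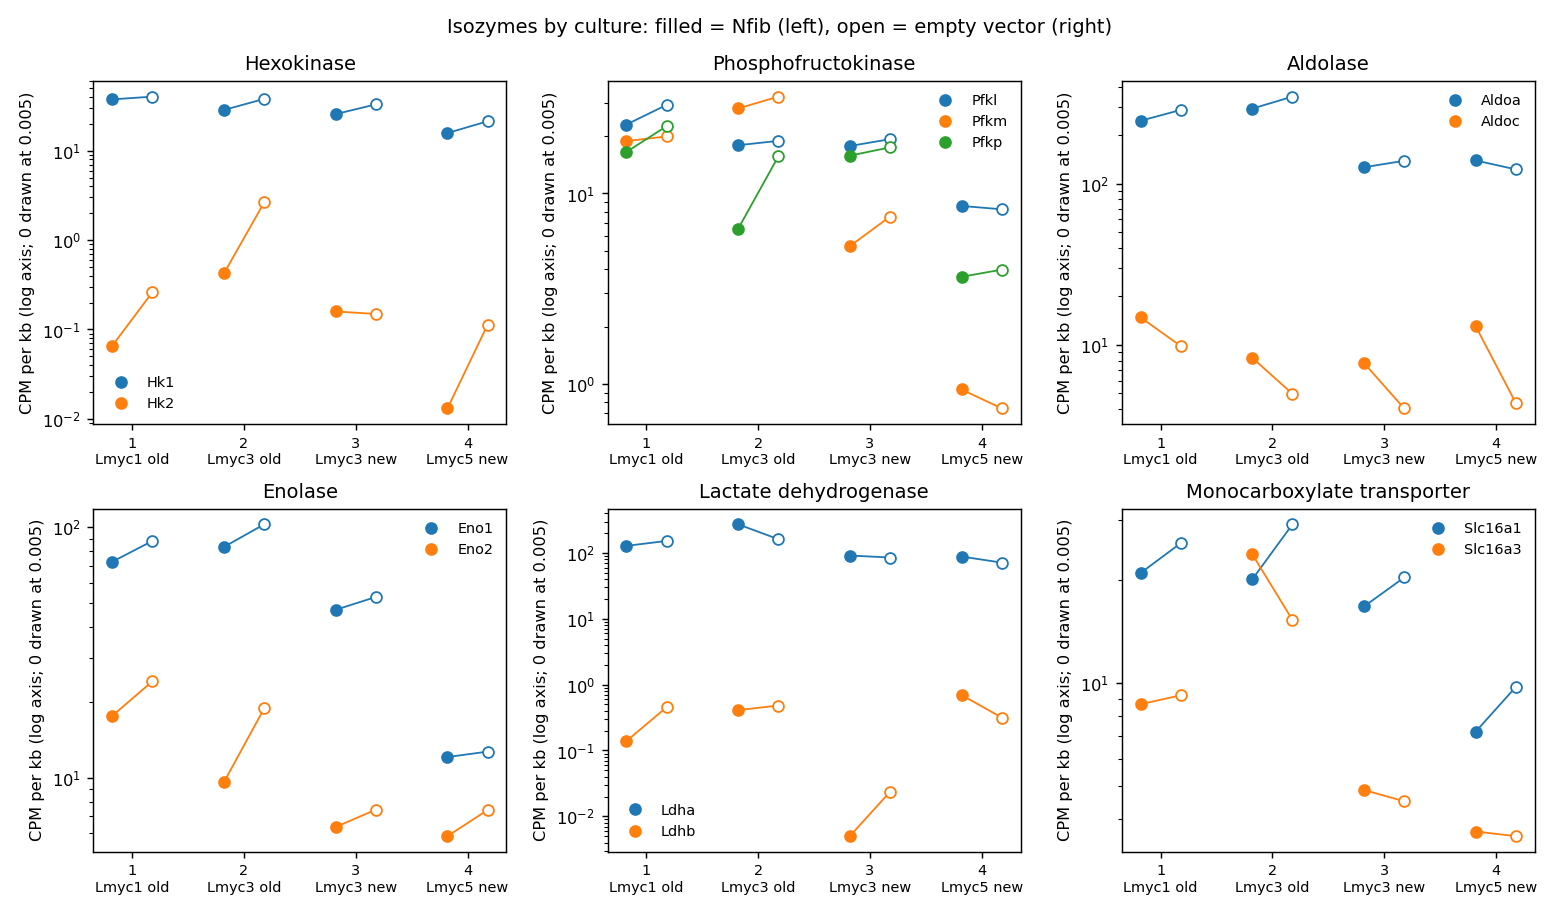
Levels of isozymes in each culture (CPM per kb of merged exon, log y axis, 0 drawn at 0.005), with filled points for Nfib on the left, open points for empty vector on the right, and a line joining the pair. Hk1, Aldoa, Eno1 and Ldha lead their families in all 8 libraries, Pfkm ranges from above Pfkl in culture 2 to far below it in culture 4, and Slc16a3 exceeds Slc16a1 in the Nfib library of culture 2 alone.

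Against this background, the question of the study's design was what forced Nfib did within each culture. By edgeR's quasi-likelihood test without a block, 0 of 13380 genes and 0 of the 31 passed an adjusted p of 0.05, with 83 genes and 1 of the 31 at an unadjusted p under 0.05. With the culture as a block, edgeR again called 0 genes, with 2012 genes and 9 of the 31 at an unadjusted p under 0.05, and its bias-adjusted form called 44 genes (0.329%), none of them among the 31. DESeq2's Wald test with the same block called 543 genes (4.06%), and 6 of the 31 (19.4%). In what follows, rose and fell mean a pass in this paired DESeq2 test, and no edgeR fit called any of the genes so described. By direction, 1 of the 31 rose, where 1.86% of all genes did, and 5 fell, where 2.2% of all genes did. Aldoc rose, and Slc16a1, Hk1, Eno2, Hif1a and Eno1 fell.

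The lean of the whole group was small. The median paired log2 fold change of the 31 genes was -0.17, beside -0.01 over all genes tested, and 25 of 31 had a negative value. In all 4 pairs, 11 of the 31 (35.5%) were lower with Nfib and 1 (3.23%) was higher, where 12.8% of all genes were lower in all 4 pairs and 12.8% were higher in all 4 pairs. The median within-pair log2 ratio was -0.19, -0.24, -0.12 and -0.07 in pairs 1 to 4, with 26, 26, 21 and 18 of the 31 below 0. No gene of the 31 had Nfib and empty vector libraries that did not overlap, as 0.516% of all genes had.

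**Figure D4:**
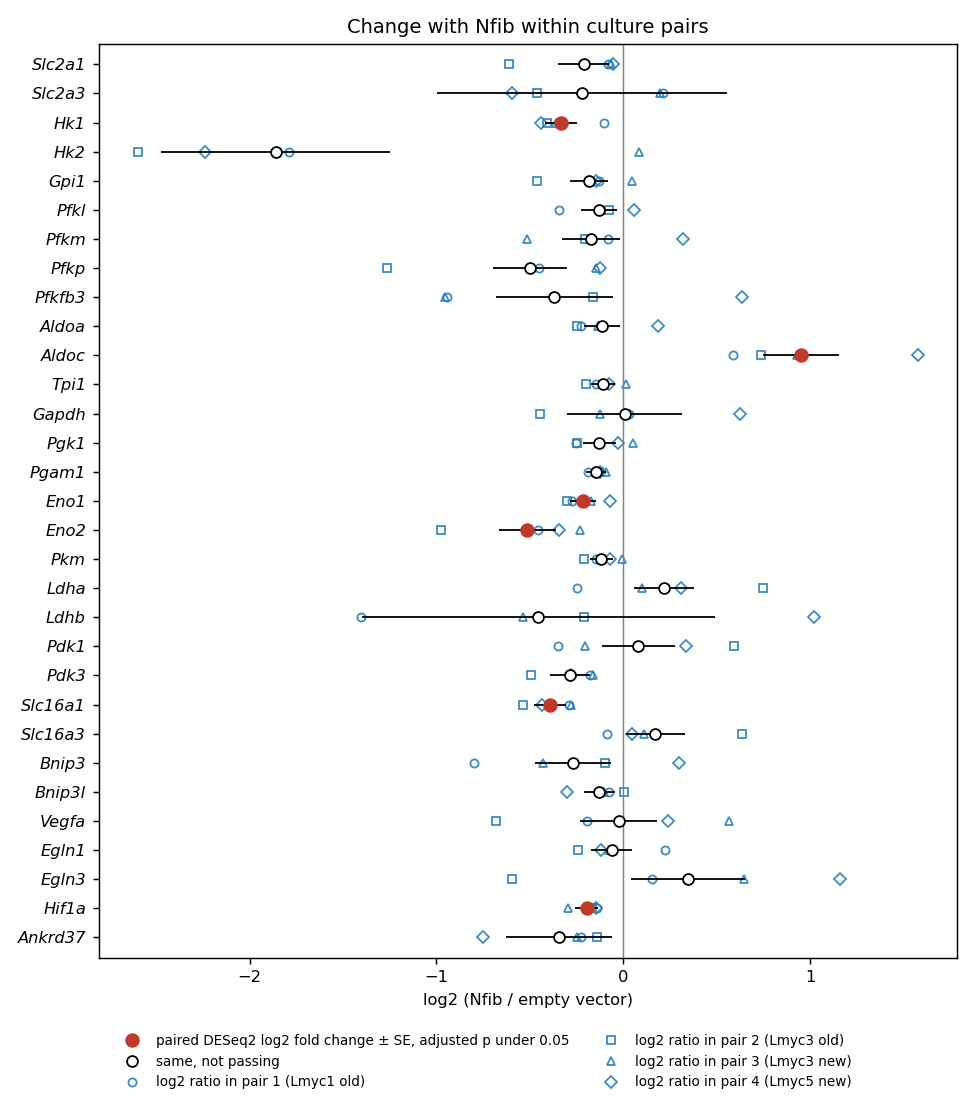
Log2 ratio of Nfib to empty vector for the 31 genes tested, as the paired DESeq2 fold change with its standard error (filled red where the adjusted p was under 0.05, open where not) and as the ratio in each of the 4 pairs (blue symbols, log2 CPM with a prior count of 2). Aldoc lies to the right of 0 in all 4 pairs, between 0.59 and 1.58, most other genes lie slightly to the left, and Hk2 and Ldhb have wide errors.

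Aldoc was the gene that rose. It measured 48.4, 27.1, 25.2 and 42.5 CPM in the Nfib libraries, against 32.1, 16.2, 13.2 and 14.2 CPM in the empty vector libraries. Every Nfib library was above its own partner, while the Nfib libraries of cultures 2 and 3 were below the empty vector library of culture 1. The paired DESeq2 log2 fold change was 0.95 ± 0.20 (SE, adjusted p = 0.000343), and it passed in each of the 4 fits that leave out 1 pair, with adjusted p between 0.00129 and 0.0151. In edgeR with the block the adjusted p was 0.166. The gene (ENSMUSG00000017390, chromosome 11, 78322968 to 78327781, plus strand, GRCm38) shares no window with another gene. The log2 ratio of Aldoc to Aldoa, which does not depend on library size, was higher with Nfib in 4 of 4 pairs by 1.06 ± 0.24 (SD, n = 4 pairs, exact two-sided sign-flip p = 0.125, the smallest that 4 pairs allow).

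Slc16a1, the monocarboxylate transporter MCT1, fell. It measured 92.6, 88.8, 74 and 31.9 CPM in the Nfib libraries, against 113, 129, 89.9 and 43.1 CPM in the empty vector libraries. Its log2 ratio was -0.29, -0.53, -0.28 and -0.43 in pairs 1 to 4, a narrow range beside the spread between cultures. The paired DESeq2 log2 fold change was -0.39 ± 0.09 (SE, adjusted p = 0.0007), and without pair 4 it no longer passed (adjusted p = 0.0846). The gene lies on chromosome 3, 104638668 to 104658462, plus strand (GRCm38), and shares no window with another. Slc16a3, the transporter MCT4 tied to lactate export from glycolytic cells, measured 46.1, 126, 25.9 and 19.6 CPM in the Nfib libraries, against 48.9, 81.2, 24 and 19 CPM in the empty vector libraries, and did not pass (log2 0.17 ± 0.16, DESeq2 adjusted p = 0.736). The log2 ratio of Slc16a3 to Slc16a1 was higher with Nfib in 4 of 4 pairs, by 0.56 ± 0.42 (SD, n = 4 pairs, exact two-sided sign-flip p = 0.125).

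Hk1 fell by 0.34 ± 0.09 on the log2 scale (SE, paired DESeq2 adjusted p = 0.0052). Its ratio was -0.10 in pair 1 and between -0.36 and -0.44 in the other pairs, and without pair 1 the adjusted p was 0.00025. It did not pass without pair 2, 3 or 4, where the adjusted p was 0.0694, 0.19 and 0.196. Hk2 had a larger and less certain paired fold change of -1.86 ± 0.61 (DESeq2 adjusted p = 0.0555). It was lower with Nfib in pairs 1, 2 and 4 and not in pair 3, where 22 counts with Nfib stood against 24 with empty vector. Without pair 3 it passed, at an adjusted p of 0.00136.

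Both enolases were lower with Nfib in all 4 pairs. Eno2 measured 83, 45.1, 29.9 and 27.5 CPM in the Nfib libraries, against 114, 88.9, 35.1 and 34.9 CPM in the empty vector libraries, and fell by 0.51 ± 0.15 on the log2 scale (SE, paired DESeq2 adjusted p = 0.0268). The largest gap was in culture 2, at a log2 ratio of -0.98. It passed without pair 3 and not without pair 1, 2 or 4 (adjusted p between 0.0854 and 0.195), nor with library totals as size factors (adjusted p = 0.0532). Eno1 measured 391, 448, 252 and 65 CPM in the Nfib libraries, against 474, 552, 283 and 68.3 CPM in the empty vector libraries. It fell by 0.22 ± 0.07 (paired DESeq2 adjusted p = 0.0462), just inside the threshold, and passed in 0 of the 4 fits that leave out a pair, nor with total counts or TMM factors. Eno1b, its near-identical copy, had a fold change of -0.24 ± 0.11 and did not pass (adjusted p = 0.282).

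Eno2 is also used as a neuroendocrine marker, and that list moved in part with Nfib. Of its 11 genes, 2 fell, Scg2 (log2 -1.23 ± 0.23, paired DESeq2 adjusted p = 2.32e-05), which encodes a granin of dense-core vesicles, and Nkx2-1 (-0.39 ± 0.11, adjusted p = 0.0122), a lung lineage transcription factor. Of all genes tested, 2.2% fell. The list's median was -0.22. Its part in the enolase values was not tested.

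Hif1a, the oxygen-labile subunit of HIF-1, varied little between cultures, 1.20-fold among the Nfib libraries and 1.22-fold among the empty vector libraries. It measured 263, 220, 245 and 236 CPM in the Nfib libraries, against 290, 247, 301 and 261 CPM in the empty vector libraries. The Nfib library was the lower of each pair by a small margin, and the fold change was -0.19 ± 0.06 (SE, paired DESeq2 adjusted p = 0.0438). It passed in 0 of the 4 fits that leave out a pair, and not with total counts (adjusted p = 0.161) or TMM factors (0.0566). Of the prolyl hydroxylases that mark its protein, Egln1 lay between 38.7 and 118 CPM with Nfib and between 41.2 and 128 CPM with empty vector, highest in culture 4. Egln3, itself a HIF target, measured 22.1, 5.43, 23.8 and 20.9 CPM in the Nfib libraries, against 19.9, 8.23, 15.2 and 9.3 CPM in the empty vector libraries. It was higher with Nfib in pairs 1, 3 and 4 and lower in pair 2, and did not pass (log2 0.35 ± 0.31, DESeq2 adjusted p = 0.721).

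Vegfa, Bnip3, Bnip3l and Ankrd37, hypoxia-linked genes that encode no step of glycolysis, did not pass the paired DESeq2 test. Their fold changes were below 0, as were 25 in all of the 31 genes tested. That of Vegfa was within its SE and was above 0 with total counts (0.0108). Egln3, Ldha, Slc16a3, Pdk1 and Gapdh had fold changes above 0 that did not pass. Vegfa, the endothelial growth factor, measured 84.6, 48.4, 137 and 94.7 CPM in the Nfib libraries, against 97, 77.6, 92.6 and 80.2 CPM in the empty vector libraries. Its Nfib library was the lower in the 2 old cultures and the higher in the 2 new ones, with a paired fold change of -0.02 ± 0.21 (DESeq2 adjusted p = 0.988). Bnip3, a mitophagy receptor, measured 42.9, 40.7, 28.8 and 27.6 CPM in the Nfib libraries, against 74.7, 43.5, 38.8 and 22.4 CPM in the empty vector libraries, and did not pass (-0.27 ± 0.20, DESeq2 adjusted p = 0.636). Its relative Bnip3l lay at between 140 and 157 CPM with Nfib and between 139 and 194 CPM with empty vector, and like Bnip3 was lower with Nfib in 3 of 4 pairs (-0.13 ± 0.08, DESeq2 adjusted p = 0.536). Ankrd37, a small ankyrin-repeat gene induced by HIF-1, was below 10 CPM in all libraries, lower with Nfib in all 4 pairs (-0.35 ± 0.28, DESeq2 adjusted p = 0.687), and overlaps Lrp2bp on the opposite strand over 22.7% of its exon bases.

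**Figure D5:**
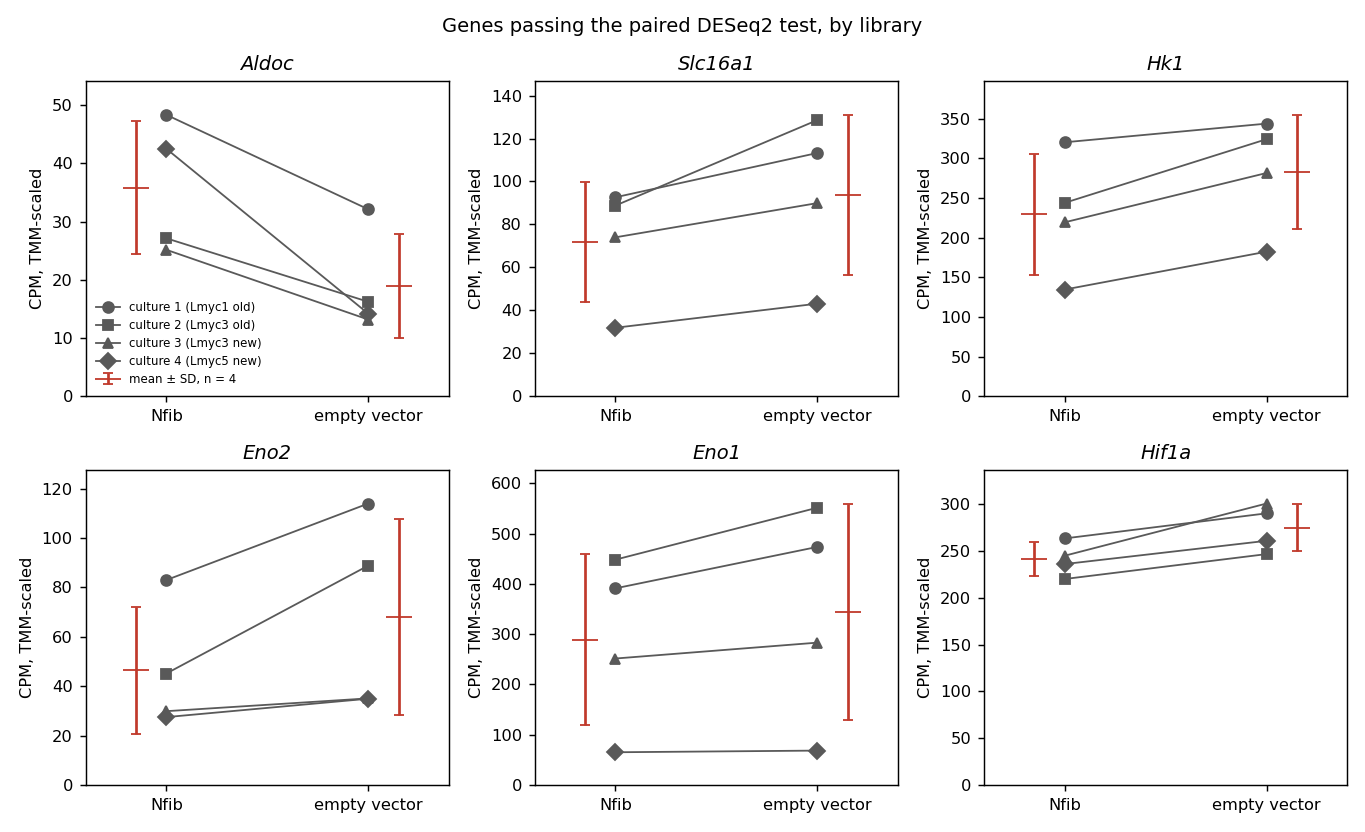
Levels of the 6 genes that passed the paired DESeq2 test (CPM, y axes from 0), Nfib on the left and empty vector on the right, with a line joining the libraries of a culture and red bars for the mean ± SD of the 4 libraries of an arm. Aldoc is higher with Nfib in every culture, the other 5 are lower with Nfib in every culture, and the arms overlap for all 6.

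The remaining genes of the chain had paired fold changes that did not pass. Pfkp had the largest of them, -0.50 ± 0.20 (DESeq2 adjusted p = 0.153), with its largest gap in culture 2, where it measured 87.3 CPM with Nfib and 210 CPM with empty vector. Pgam1 was lower with Nfib in all 4 pairs by a small and even amount (-0.14 ± 0.05, DESeq2 adjusted p = 0.118), as was Pdk3 (-0.29 ± 0.11, adjusted p = 0.114). Slc2a1 was lower with Nfib in all 4 pairs too, at -0.06 to -0.08 in pairs 1, 3 and 4 and -0.61 in pair 2. Pkm, at -0.12 ± 0.06, was likewise the lower of each pair. Ldha had the other sign, with a fold change of 0.22 ± 0.16 (DESeq2 adjusted p = 0.628), higher with Nfib in cultures 2, 3 and 4 and lower in culture 1. Pfkl, Pfkm, Pfkfb3, Gpi1, Aldoa, Tpi1 and Pgk1 had fold changes between -0.37 and -0.11 with no common sign over the 4 pairs.

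Isozyme balance was compared with Nfib for 11 pairs of genes in all, with sign-flip tests over the 4 pairs. No ratio could reach an exact two-sided p under 0.125, and the smallest Benjamini-Hochberg adjusted p was 0.3438. Beside Aldoc to Aldoa and Slc16a3 to Slc16a1, the ratios of 1 sign in all 4 pairs were Eno2 to Eno1, at -0.30 ± 0.27, and Pfkp to Pfkl, at -0.38 ± 0.54 (SD, n = 4 pairs, exact sign-flip p = 0.125 each). An effect of Nfib that differs between old and new cultures was called for none of the 31 genes, by edgeR's interaction test (0 genes in all, 405 at an unadjusted p under 0.05) or by DESeq2's (7 genes in all).

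Around the 32 genes, 2 further lists were read, to be set beside the 1.86% of all genes that rose and the 2.2% that fell. Of 56 genes of neighbouring steps (other isozymes, the pyruvate dehydrogenase complex, gluconeogenesis, the pentose phosphate path and glycogen), 51 were in the table, 41 were tested, 1 rose and none fell by paired DESeq2, with a median log2 fold change of -0.01. The gene that rose was Gpd1, the cytosolic glycerol-3-phosphate dehydrogenase, which draws on the product of aldolase. It measured 34.3, 10.2, 27 and 10.4 CPM in the Nfib libraries, against 15.2, 4.49, 23.5 and 1.62 CPM in the empty vector libraries, higher with Nfib in 4 of 4 pairs (1.26 ± 0.38, adjusted p = 0.0259). The most abundant of the list, Bsg (the chaperone of Slc16a1 and Slc16a3), Tkt (transketolase) and Pdha1 (a subunit of pyruvate dehydrogenase), did not pass, at -0.15 ± 0.07, 0.16 ± 0.08 and 0.06 ± 0.10.

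Of 40 other genes of the HIF pathway and its targets, 37 were tested, none rose and 1 fell by paired DESeq2, with a median log2 fold change of 0.07. Tfrc, the transferrin receptor, fell by 0.31 ± 0.06 on the log2 scale (paired DESeq2 adjusted p = 1.24e-05). It measured 601, 1038, 365 and 413 CPM in the Nfib libraries, against 766, 1243, 467 and 483 CPM in the empty vector libraries, lower with Nfib in 4 of 4 pairs. Mif and Ero1l, the next most abundant of that list, did not pass, at 0.18 ± 0.14 and -0.04 ± 0.11. Epas1, which encodes the related subunit of HIF-2, was at 5.94 CPM or less in every library. It was lower with Nfib in 4 of 4 pairs and did not pass (log2 -1.43 ± 0.63, SE, paired DESeq2 adjusted p = 0.238).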

How the data were processed

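The 32 genes and the gene lists were chosen with earlier results of these data known. Read counts per Ensembl gene, whole numbers and not normalized, were deposited by the authors for 8 libraries made with the TruSeq RNA kit, per the labels. Per the submitters' processing notes, the build was GRCm38 (mm10) and the tools were SAMtools 0.1.19, Bowtie 1.0.0, TopHat2 2.1 and DESeq2. No source used here gives the annotation release, the counter or whether it used strand. The labels' extraction text speaks of genomic DNA from tumors, while the molecule given is total RNA. An allele listed in the labels and some genes of the lists are not reported here, while counts and sums over lists include those genes.

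From these counts, edgeR 4.0.16 (R 4.3.3; quasi-likelihood, original form of the fit, TMM factors, expression filter by group, Benjamini-Hochberg at 0.05) tested Nfib against empty vector over all 13380 genes kept. The members are described with DESeq2 1.42.0's Wald test with the replicate number as a block, unshrunken, because edgeR called no gene. Its adjusted p was undefined for 260 genes, Slc2a3 and Ldhb among them, which count as not passing. Pairing comes from the labels, where the 2 libraries with 1 replicate number name 1 line. Their deviations from the group means correlated across genes at r of 0.908, 0.884, 0.935 and 0.929, against at most 0.0647 for any other combination. Deviations from the mean of 4 libraries sum to 0 for each gene, which lowers the correlation of other combinations by construction. limma 3.58.1 (voom), other scalings and filters, the Lmyc3 pairs summed and each pair left out were alternatives. Levels per kb use merged exons of a GENCODE GRCm38 annotation that matched 22434 of 22691 identifiers. A prior count of 2 was added before log2 CPM ratios were taken within pairs. The fits were tested on simulated counts. All 32 genes could be named, with genes of the other lists that passed or were the 3 most abundant, the cell markers and near-identical copies; Epas1 was named after its values were seen.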

Additional observations from a re-analysis of the deposited data

Results flagged for a closer look

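Within groups of 4 libraries or 4 pairs, 93 sets of values were screened for 1 value far from the other three, and 6 stood out by Dixon's criterion for a gap that is large beside the range, where chance marks about 1 set in 20. Culture 2 gave 3 of them: the within-pair log2 ratio of Slc2a1, at -0.61 beside -0.06 to -0.08 elsewhere, the level of Hk2 in its empty vector library, 15.8 CPM against at most 1.56 CPM in the others, and the level of Egln3 in its Nfib library, 5.43 CPM against at least 20.9 CPM in the others. Aldoc stood out at 32.1 CPM in the empty vector library of culture 1, where the other empty vector libraries had at most 16.2 CPM. Hif1a had a log2 ratio of -0.30 in pair 3 and between -0.14 and -0.16 in the others. Ankrd37 was highest in the empty vector library of culture 3, at 9.46 CPM.

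Vegfa was lower with Nfib in both old cultures and higher in both new cultures, a difference of 0.84 ± 0.22 (SE) on the log2 scale between new and old. The interaction did not pass in edgeR (adjusted p = 1).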

How the results depend on the processing

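The number of genes called for Nfib depended on the tool and the block. Where edgeR without a block called 0, its bias-adjusted form with the replicate block called 44, DESeq2 without a block 3, limma voom with the block 3 and paired DESeq2 543. Set against those 543, edgeR with the block called 0, and leaving out pair 1, 2, 3 or 4 gave 351, 382, 234 and 251. Of the 31 genes, DESeq2 with the replicate block called 6, with total counts 3, in the other tools with the block and without it 0, and without pair 1, 2, 3 or 4 it called 3, 2, 4 and 1. With the Lmyc3 pairs summed it called 6, with Hk2 and Pfkp in place of Eno1 and Hif1a. The interaction called 7 genes in DESeq2 and 0 in edgeR. Over 401 alternative values of the 31 fold changes, 336 kept direction and side of the threshold, 46 lost the call, 3 gained it and 16, of 5 genes that did not pass, turned sign. Gapdh was -0.0067 (bias-adjusted edgeR), -0.0101 (voom), -0.045 (no block) and -0.187 to 0.174 without 1 pair. Pdk1 was -0.05 without the block, -0.0348 with Lmyc3 summed and -0.0826 to 0.229 without 1 pair. Vegfa was 0.0108 with total counts, 0.0153 in voom, 0.0615 without the block, 0.0518 with Lmyc3 summed and -0.215 to 0.198 without 1 pair. Leaving out a pair moved Ldhb between -1.19 and 0.0026 and Egln1 between -0.151 and 0.0028. It also moved the log2 ratio of Pfkm to Pfkl between -0.0881 and 0.131, of Slc2a3 to Slc2a1 between -0.0442 and 0.232, and of Bnip3 to Bnip3l between -0.384 and 0.0581. With a prior count of 0.5, the log2 ratio of Pfkm to Pfkl was 0.0009 and that of Slc2a3 to Slc2a1 was -0.0223. The cause of these changes was not tested. Counts of 0 to 31 limit Slc2a3, Ldhb and Car9.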
